A study of Mus musculus with 20 samples.

Results

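Messenger RNA levels of 46 genes of the lysosome were followed in mouse BV-2 cells, which are microglia kept in culture by immortalization, and in BV-2 cells labelled as RGS10 knockout. The 46 genes were taken by symbol from a list of lysosomal hydrolases, cathepsins, subunits of the proton pump, 3 membrane proteins and the transcription factors Tfeb, Tfe3 and Mitf, out of 56941 genes in the count table. All 46 had a row, and all 46 were among the 13755 genes that passed the filter on low counts. The 4 groups were wild type with vehicle (culture medium alone), wild type with interferon gamma (IFNγ) at 10 ng/mL, knockout with vehicle and knockout with IFNγ, each for 48 h. Each group had 5 libraries of poly(A)-enriched RNA, labelled as biological replicates. In every group replicates 1, 2 and 3 belonged to batch 1, replicate 4 to batch 2 and replicate 5 to batch 3, and values are listed below in that order. How the knockout was made, and whether the line is 1 clone, is not given in the sources used here. RGS10 is a regulator of G protein signalling, a family that speeds GTP hydrolysis by G protein alpha subunits.

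Lysosomes are acidic compartments in which proteins, lipids and sugar chains taken up by phagocytosis, or delivered by autophagy, are broken down. A proton pump, the V-ATPase, acidifies the lumen: its V1 sector hydrolyses ATP in the cytosol, and its V0 sector carries protons through the membrane. Most lysosomal hydrolases work best at acidic pH, and in microglia and macrophages the same enzymes cut antigens before they are loaded on MHC class II. The transcription factors Tfeb, Tfe3 and Mitf can bind an E-box, found in the promoters of many lysosomal genes and extended there to the CLEAR element, and mTORC1 at the lysosomal surface holds Tfeb and Tfe3 in the cytosol.

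The promoters of these genes are shown first because the letters they share are set beside the responses below. RefSeq promoters (GRCm38.p6, 250 bases before to 50 bases after the start) were found for 38 of the 46 genes. The letters CACGTG, the core of the E-box, were in the promoters of 14 of the 38 (36.8%), against 8.09% of 27025 genes with a promoter in the same table. The longer form TCACGTGA, which contains the first, was in 7 of the 38 (18.4%), against 1.12% of all. Both forms read the same on either strand. A further form that was searched, TTCNNNGAA (the gamma-activated site, N being any base), was in 1 of the 38 (2.63%, Ctsc), against 9.55% of all. The stretches around the longer form are given 5′ to 3′ on the gene's strand, with the matching letters in capitals, together with Lamp1, which holds 4 copies of the shorter form. A match is a run of letters in this window and not a measured site.

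Ctsa: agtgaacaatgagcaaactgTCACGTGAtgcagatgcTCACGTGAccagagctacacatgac
Ctsd: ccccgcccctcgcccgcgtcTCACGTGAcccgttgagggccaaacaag
Mcoln1: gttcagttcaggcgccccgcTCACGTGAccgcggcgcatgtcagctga
Ifi30: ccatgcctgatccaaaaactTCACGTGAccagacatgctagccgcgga
Atp6v0d1: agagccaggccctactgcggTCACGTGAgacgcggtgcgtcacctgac
Atp6v1a: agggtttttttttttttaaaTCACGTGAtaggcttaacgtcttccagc
Atp6v0e: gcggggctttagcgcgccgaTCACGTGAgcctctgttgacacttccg
Lamp1: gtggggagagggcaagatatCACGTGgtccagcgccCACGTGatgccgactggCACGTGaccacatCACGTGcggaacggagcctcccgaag

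These stretches lie at chr2:164833740-164833801 on the plus strand (Ctsa), chr7:142387899-142387946 on the minus strand (Ctsd), chr8:3500453-3500500 on the plus strand (Mcoln1) and chr8:70766833-70766880 on the minus strand (Ifi30). The others lie at chr8:105566041-105566088 on the minus strand (Atp6v0d1), chr16:44139364-44139411 on the minus strand (Atp6v1a), chr17:26676378-26676424 on the plus strand (Atp6v0e) and chr8:13159080-13159171 on the plus strand (Lamp1). Counted from the start as +1, the longer form began at -13 and +5 in Ctsa, -99 in Ctsd, -46 in Mcoln1, -197 in Ifi30, -4 in Atp6v0d1, -132 in Atp6v1a and +3 in Atp6v0e. In Lamp1 the shorter form began at -61, -45, -28 and -15.

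The libraries held 15866749 to 29157740 counts each, and the lowest count of any of the 46 genes in a library was 110. Levels are CPM, read counts relative to library sizes scaled by TMM, as mean ± SD over the 5 libraries of a group. A gene is called higher or lower, and is said to have risen or fallen, where edgeR's Benjamini-Hochberg adjusted p over all 13755 genes was under 0.05, and log2 differences are the fitted values with batch as a term ± SE. Rgs10 itself stood at 63.0 ± 6.63 CPM in wild-type vehicle libraries, 29.6 ± 11.7 with IFNγ, and 28.2 ± 4.56 and 24.4 ± 14.7 in the knockout groups. It was lower in the knockout under vehicle (log2 -1.17 ± 0.17, adjusted p = 3.2e-05) but was not called under IFNγ (log2 -0.33 ± 0.17, adjusted p = 0.13), so it checks the labels under vehicle and not under IFNγ. All 8 macrophage and microglial markers were detected, with sums of 2010 to 4940 CPM in every library, while summed astrocyte, neuron, oligodendrocyte, fibroblast and lymphocyte markers stayed at or under 6.39 CPM. The sums hide differences between the lines. Under vehicle Aif1 averaged 3.36 CPM in the knockout against 23.9 CPM in wild-type cells, and Csf1r 430.5 against 743 CPM. Ptprc (315 against 254 CPM) and Tyrobp (277 against 230 CPM) went the other way. Endothelial markers summed to 17.0 CPM at most, in wild-type cells with IFNγ, of which Pecam1 gave up to 16.4, and Cldn5 was at or near 0.

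The 4 IFNγ libraries of batches 2 and 3 stood apart from the other IFNγ libraries. The 46 genes held 2.35% to 2.80% of all counts in wild-type vehicle libraries. With IFNγ they held 5.00%, 5.01% and 4.91% in batch 1, 10.0% in batch 2 and 8.42% in batch 3. In the knockout they held 2.11% to 2.33% under vehicle, and with IFNγ 3.51%, 3.43% and 3.46% in batch 1, 5.02% in batch 2 and 4.82% in batch 3. Psap and Ctsb together gave 5.83% and 4.82% of all counts in replicates 4 and 5 of the wild-type IFNγ group. Malat1, a nuclear noncoding RNA used as a sign of RNA or library quality, was at 1514 and 955 CPM in these 2 libraries and at 1446 and 1004 CPM in their knockout counterparts. In batch 1 it was at 355 to 386 CPM in wild-type and 56.0 to 62.7 CPM in knockout IFNγ libraries. Unlike the levels of the 46 genes, these Malat1 values are relative to plain library totals, without TMM scaling. The part of Malat1 in the results was not tested. Batch 1 values, which these libraries do not enter, are given beside some of the main results and not beside all. TMM factors were 0.635 and 0.764 in replicates 4 and 5 of the wild-type IFNγ group and 0.892 and 0.879 in those of the knockout. They were 1.01 to 1.12 in all other libraries. A lower factor raises the CPM of every gene in its library, so the responses of batches 2 and 3 carry this scaling too. In a bulk sample, more cells that express a gene and more RNA per cell cannot be told apart.

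**Figure D1:**
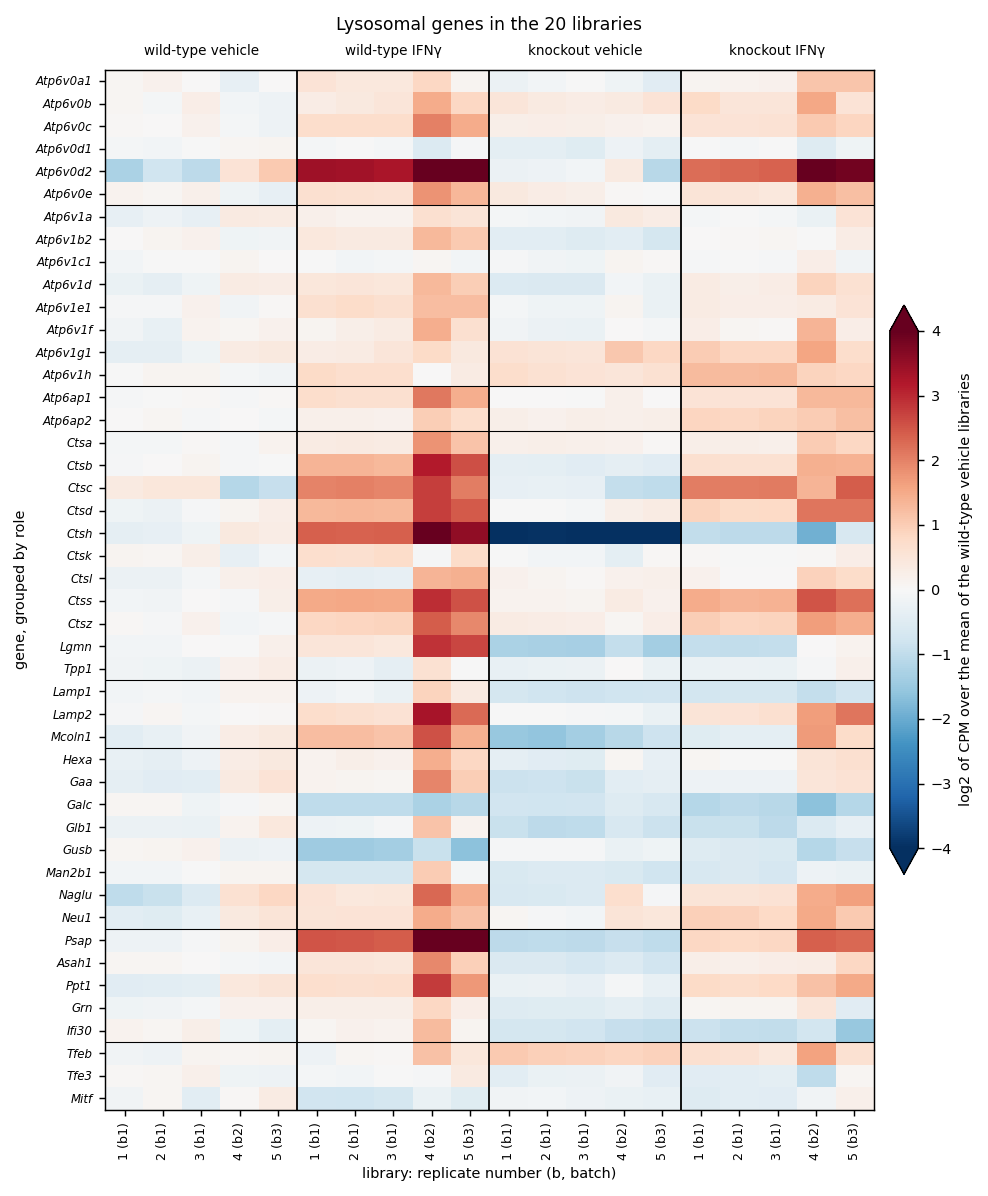
Colour gives the log2 ratio of each gene's CPM in each of the 20 libraries (columns, by group, replicate and batch) to its mean in the 5 wild-type vehicle libraries, with the 46 genes in rows by role; the scale is capped at 4 either way. Most rows are red in both IFNγ groups and deepest in batches 2 and 3, Gusb and Galc are blue there, and Ctsh is dark blue in all 5 knockout vehicle libraries.

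The first question was what IFNγ did to these genes in wild-type cells. Of the 46 genes 33 rose, 3 fell (Galc, Gusb and Mitf) and 10 were not called. Psap, Ctsh, Atp6v0d2, Ctsc, Ctss, Ctsb and Ctsd rose most, and 16 genes rose by more than 1 on the log2 scale. Among all tested genes 58.9% were called, 29% higher and 29.9% lower. The 46 genes thus had 71.7% called higher and 6.52% called lower, with a median log2 difference of 0.71 against 0.01 over all genes. Wild-type vehicle and IFNγ libraries did not overlap at 26 of the 46 genes, 24 higher and 2 lower with IFNγ, against 36.2% of all genes. The median log2 difference within a batch was 0.46 in batch 1, 1.36 in batch 2 and 0.73 in batch 3. All 36 called genes had the same sign in all 3 batches. The calls rest on the same libraries, here and in the comparisons below, so this agreement is not a separate check. The log2 differences include the TMM scaling. With plain library totals the fitted median was 0.46 over the 46 genes and -0.21 over all genes.

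Among the lipid hydrolysis factors Psap, the precursor of the saposins that present sphingolipids to their hydrolases, changed most. Its vehicle libraries held 1608, 1627, 1798, 2020 and 2214 CPM, against 10500, 10320, 9867, 49390 and 35170 CPM after IFNγ. Every IFNγ library was above every vehicle library, and batches 2 and 3 were above batch 1. The fitted rise was 10.1-fold (log2 3.33 ± 0.31, adjusted p = 3.7e-08), with batch values of 2.61, 4.61 and 3.99. Asah1, acid ceramidase, rose by log2 0.91 ± 0.20, and Ppt1, which removes palmitate from proteins, by 1.44 ± 0.23. In batch 1 these rises were 0.42 and 1.09. Grn, the precursor of progranulin, rose by 0.36 ± 0.13 (adjusted p = 0.025), a call lost in 5 of 20 fits that left out 1 library (wild-type vehicle replicates 1 to 4 or wild-type IFNγ replicate 4), with adjusted p up to 0.076. Ifi30, the lysosomal thiol reductase that unfolds antigens and is known as an IFNγ-inducible gene, was not called: its levels were 306, 296, 326, 245 and 213 CPM under vehicle and 293, 310, 302, 665 and 302 CPM with IFNγ (log2 0.40 ± 0.17, adjusted p = 0.054).

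Of the 11 proteases 9 rose and Ctsl and Tpp1 were not called. Ctsb, a cysteine protease, stood at 4509, 4724, 5089, 4515 and 4593 CPM under vehicle and at 12010, 11990, 11590, 42590 and 27940 CPM with IFNγ. The rise was 4.01-fold (log2 2.00 ± 0.25, adjusted p = 1.6e-06) and 1.31 on the log2 scale in batch 1. Ctsh, an aminopeptidase, went from 79.2, 81.1, 90.9, 134 and 127 CPM to 541, 528, 542, 1649 and 1194 CPM, a rise of 8.33-fold (log2 3.06 ± 0.28, adjusted p = 3.4e-08). Groups did not overlap for either gene. Ctss, which cuts the class II invariant chain, went from 645, 635, 706, 674 and 813 CPM to 2007, 2024, 1966, 5347 and 4055 CPM (log2 2.02 ± 0.19, adjusted p = 4.8e-08).

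Ctsd, an aspartic protease, rose by log2 1.84 ± 0.19 and Ctsc, dipeptidyl peptidase I, by 2.31 ± 0.29. Ctsc was also lower under vehicle in batches 2 and 3 (200 and 233 CPM) than in batch 1 (575, 608 and 603 CPM). Lgmn, the asparaginyl endopeptidase that activates cathepsins, stood at 856, 857, 931, 923 and 1076 CPM under vehicle and at 1307, 1308, 1242, 6845 and 5867 CPM with IFNγ. Its rise of log2 1.5 ± 0.31 (adjusted p = 0.00033) was thus made of 0.54 in batch 1 and of 2.89 and 2.45 in the other batches. Ctsz, a carboxypeptidase, rose by 1.42 ± 0.23, Ctsa, the protective protein of the sialidase complex, by 0.82 ± 0.19, and Ctsk, a collagenolytic protease of osteoclasts, by 0.56 ± 0.12. In batch 1 these rises were 0.80, 0.37 and 0.55. Ctsl fell short of a call at 0.44 ± 0.22 (adjusted p = 0.088): it was at 777, 769, 863, 1054 and 1111 CPM under vehicle and at 722, 719, 733, 2360 and 2461 CPM with IFNγ, so batch 1 went the other way from batches 2 and 3.

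**Figure D2:**
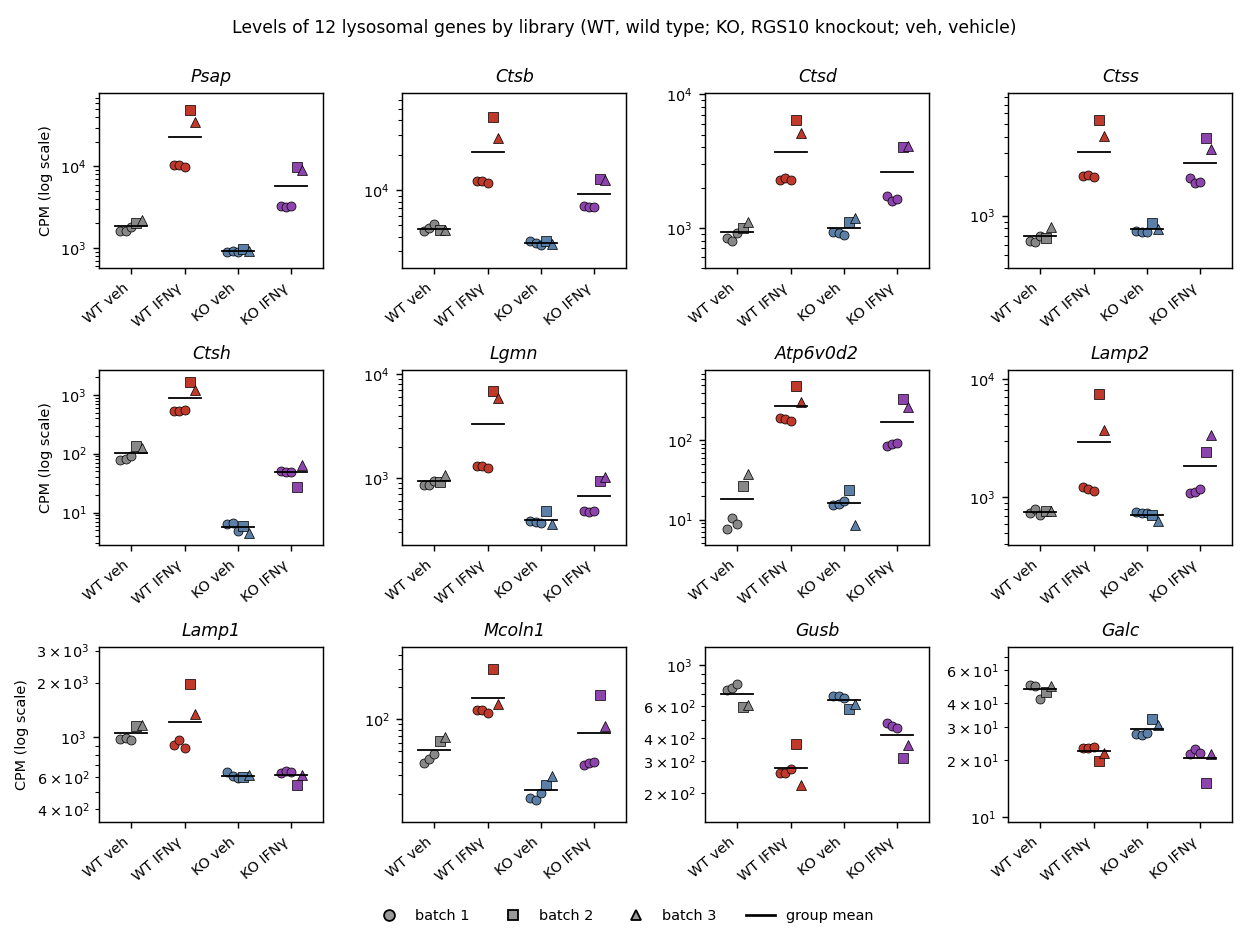
Each panel plots the CPM (log axis) of 1 gene in the 20 libraries by group, with the symbol giving the batch and the bar the mean of 5 libraries. In the wild-type IFNγ group the batch 2 and 3 points of Psap, Ctsb, Ctsd, Ctss, Ctsh, Lgmn and Lamp2 sit above the 3 points of batch 1, while Ctsh in the knockout vehicle group sits between 4.45 and 6.59 CPM.

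The proton pump rose in most of its subunits. In the V0 sector 5 of 6 genes rose and in the V1 sector 7 of 8, with median log2 differences of 0.85 and 0.53, and both accessory genes rose. Atp6v0d2, an isoform of the d subunit that macrophages and osteoclasts share, was at 7.59, 10.4, 8.77, 26.6 and 37.4 CPM under vehicle and at 192, 185, 174, 484 and 309 CPM with IFNγ. The rise was 16-fold (log2 4.00 ± 0.32, adjusted p = 7.5e-09). At 4.36 it was as large in batch 1 as in batch 2 (4.18), and it was smaller in batch 3 (3.05). Its broadly expressed counterpart Atp6v0d1 was not called (log2 -0.15 ± 0.12, adjusted p = 0.27), and per kilobase of exon Atp6v0d2 stayed below Atp6v0d1 with IFNγ, at 98.9 against 161 CPM per kb.

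The proton-carrying ring genes Atp6v0c and Atp6v0b rose by log2 1.16 ± 0.19 and 0.69 ± 0.18, Atp6v0e by 1.00 ± 0.22 and the large membrane subunit Atp6v0a1 by 0.46 ± 0.19 (adjusted p = 0.043). In batch 1 these rises were 0.63, 0.29, 0.46 and 0.37. The Atp6v0a1 call was lost in 10 of 20 fits without 1 library (wild-type vehicle replicates 1, 3, 4 and 5, wild-type IFNγ replicates 1 to 4, and knockout vehicle replicates 1 and 2), with adjusted p up to 0.16. In V1 the central stalk gene Atp6v1d rose by 0.76 ± 0.09, at 72.3, 67.6, 76.5, 109 and 107 CPM under vehicle against 118, 121, 118, 210 and 170 CPM with IFNγ, and Atp6v1e1 of the peripheral stalk by 0.91 ± 0.12. The ATP-hydrolysing A and B subunits rose by 0.36 ± 0.13 (Atp6v1a) and 0.73 ± 0.16 (Atp6v1b2), or by 0.44 and 0.29 in batch 1. The Atp6v1a call was lost without wild-type vehicle replicate 1 or 3, with adjusted p up to 0.062. Atp6v1c1, whose subunit joins the peripheral stalk to V0, was the V1 gene that was not called: it lay between 297 and 340 CPM in all 10 wild-type libraries (log2 -0.04 ± 0.09). Atp6ap1 and Atp6ap2, which help assemble the pump, rose by 1.13 ± 0.18 and 0.47 ± 0.12, or by 0.66 and 0.18 in batch 1.

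The glycosidases were divided. Naglu, Neu1, Gaa and Hexa rose by log2 1.23 ± 0.16, 0.92 ± 0.11, 0.75 ± 0.17 and 0.61 ± 0.13, whereas Gusb and Galc fell, and Glb1 and Man2b1 were not called. Gusb, which removes glucuronic acid from glycosaminoglycans, stood at 735, 755, 789, 594 and 606 CPM under vehicle and at 260, 257, 270, 372 and 223 CPM with IFNγ (log2 -1.32 ± 0.14, adjusted p = 1.6e-07). Galc, the galactosylceramidase that digests myelin lipids, stood at 49.8, 49.7, 42.4, 46.01 and 49.6 CPM and then at 23.3, 23.3, 23.6, 19.9 and 21.8 CPM (log2 -1.09 ± 0.12, adjusted p = 2.2e-07). For both genes every IFNγ library was below every vehicle library. Man2b1 was lower in batch 1 (log2 -0.62) and higher in batch 2 (0.90).

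Of the membrane proteins, Lamp2, which also serves chaperone-mediated autophagy, stood at 731, 798, 708, 763 and 772 CPM under vehicle and at 1221, 1185, 1120, 7393 and 3666 CPM with IFNγ. Its log2 rise of 1.59 ± 0.35 (adjusted p = 0.00076) was 0.66 in batch 1 and 3.28 and 2.25 in batches 2 and 3. Lamp1, the other abundant glycoprotein of the membrane, was not called at 978, 994, 966, 1154 and 1168 CPM under vehicle and 905, 966, 875, 1966 and 1336 CPM with IFNγ (log2 0.17 ± 0.16). Mcoln1, the lysosomal calcium channel TRPML1, rose by 1.55 ± 0.21 (adjusted p = 3.2e-06), from 39.0, 41.9, 47.4, 63.2 and 67.7 CPM to 123, 123, 116, 301 and 139 CPM.

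None of the 3 transcription factors rose. Tfeb and Tfe3 were not called (log2 0.33 ± 0.18 and 0.02 ± 0.14), and Mitf fell by 0.59 on the log2 scale (SE 0.13, adjusted p = 0.00071), with 41.7, 48.4, 34.6, 48.1 and 58.1 CPM under vehicle and 27.1, 26.7, 28.2, 38.8 and 33.0 CPM with IFNγ. The 2 groups overlapped for Mitf. Among the 7 genes whose promoters, printed above, hold TCACGTGA, 5 rose and none fell, with a median log2 difference of 0.82, and among the 24 genes with a promoter but without CACGTG 17 rose and 3 fell, with a median of 0.58. In knockout cells the medians lay the other way: 3 of the 7 rose, with a median of 0.32, and 16 of the 24 rose and 2 fell, with a median of 0.56. Of the 14 genes with CACGTG 9 rose in wild-type cells (median 0.72) and 5 in knockout cells (median 0.335). The difference of responses was not called for any of the 14. Over all tested genes 29% rose in wild-type and 21.4% in knockout cells. Counts of mRNA do not show where a factor is in the cell.

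The fitted rises of 6 genes were over 1.5 times smaller without the 4 IFNγ libraries of batches 2 and 3, and all 6 genes were still called. Psap then rose by log2 2.55, Ctsc by 1.71, Ctsb by 1.32, Ctsz by 0.79, Lamp2 by 0.61 and Lgmn by 0.53.

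Genes of related lists are set beside these. Among 31 other lysosomal enzymes 19 rose and 4 fell, among 23 other membrane proteins and transporters 16 rose and 2 fell, and 3 of 4 tested V-ATPase subunits outside the 46 genes rose, Tcirg1, the a3 isoform of macrophages and osteoclasts, by log2 1.91 ± 0.17, while the other two, Atp6v1g2 and Rnasek, averaged 2.33 and 1.14 CPM with IFNγ. Those with the smallest p included Gla, an alpha-galactosidase (1.49 ± 0.09), Clcn7, the lysosomal chloride exchanger (1.81 ± 0.12), and Npc2, which hands on cholesterol (2.70 ± 0.25). Ctsf, another cysteine cathepsin, fell by 1.79 on the log2 scale (SE 0.13). Of 5 tested cathepsin inhibitors 4 rose, among them Serpinb9 (4.66 ± 0.43) and Cstb (0.98 ± 0.15). Of 10 genes of mannose-6-phosphate and sortilin sorting 5 rose and 3 fell, and of 23 genes of mTORC1 control 11 rose and 5 fell. Of 8 genes of class II peptide loading 7 rose and none fell. For all of these lists the share over all tested genes was 29% higher and 29.9% lower.

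The second question was whether knockout cells responded alike. With IFNγ 28 of the 46 genes rose in the knockout and 2 fell, Galc and Gusb, with 16 not called. The background was 43.2% called, 21.4% higher and 21.8% lower, and the median log2 difference was 0.56 against -0.02 over all genes. The 28 genes that rose were 28 of the 33 that rose in wild-type cells, and both that fell were among the 3 that fell there. Vehicle and IFNγ libraries did not overlap at 26 genes, against 27.6% of all genes. The within-batch medians were 0.41, 0.84 and 0.80, and 29 of the 30 called genes had the same sign in all batches, the exception being Atp6v1g1.

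Atp6v0d2, Ctsh, Ctsc and Psap led the knockout response. Atp6v0d2 went from 15.3, 15.7, 16.9, 23.5 and 8.49 CPM to 86.2, 89.0, 93.1, 331 and 266 CPM (log2 3.12 ± 0.31, adjusted p = 2.9e-07). Psap went from 905, 921, 899, 985 and 910 CPM to 3276, 3190, 3262, 9771 and 9032 CPM (log2 2.37 ± 0.30, adjusted p = 4.3e-06). Ctsb went from 3637, 3550, 3411, 3635 and 3460 CPM to 7327, 7171, 7208, 12590 and 12180 CPM (log2 1.32 ± 0.24, adjusted p = 0.00025). In all 3 genes the lowest IFNγ library lay above the highest vehicle library, and batches 2 and 3 lay above batch 1.

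Further proteases that rose were Ctsh (3.11 ± 0.29), Ctsc (2.62 ± 0.29), Ctss (1.596 ± 0.19), Ctsd (1.25 ± 0.19) and Ctsz (0.90 ± 0.22). Lgmn, Ctsa and Ctsk, called in wild-type cells, were not called here: their log2 differences were 0.64 ± 0.30 (adjusted p = 0.088), 0.32 ± 0.19 (0.19) and 0.19 ± 0.12 (0.20). The same held for the pump genes Atp6v0b (0.35 ± 0.18, adjusted p = 0.11) and Atp6v1a (-0.04 ± 0.13, adjusted p = 0.83). The difference between lines was itself not called for any of these 5 genes, so a loss of response is not shown. The calls of Atp6v0c, Atp6v0e, Atp6v1g1 and Lamp2 in the knockout were lost without single libraries, in 7, 4, 15 and 1 of 20 fits, with adjusted p up to 0.13, 0.10, 0.12 and 0.053. Every one of these fits for Atp6v0c and Atp6v0e left out a knockout library, the 1 for Lamp2 left out knockout vehicle replicate 5, and the 15 for Atp6v1g1 came from all 4 groups.

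**Figure D3:**
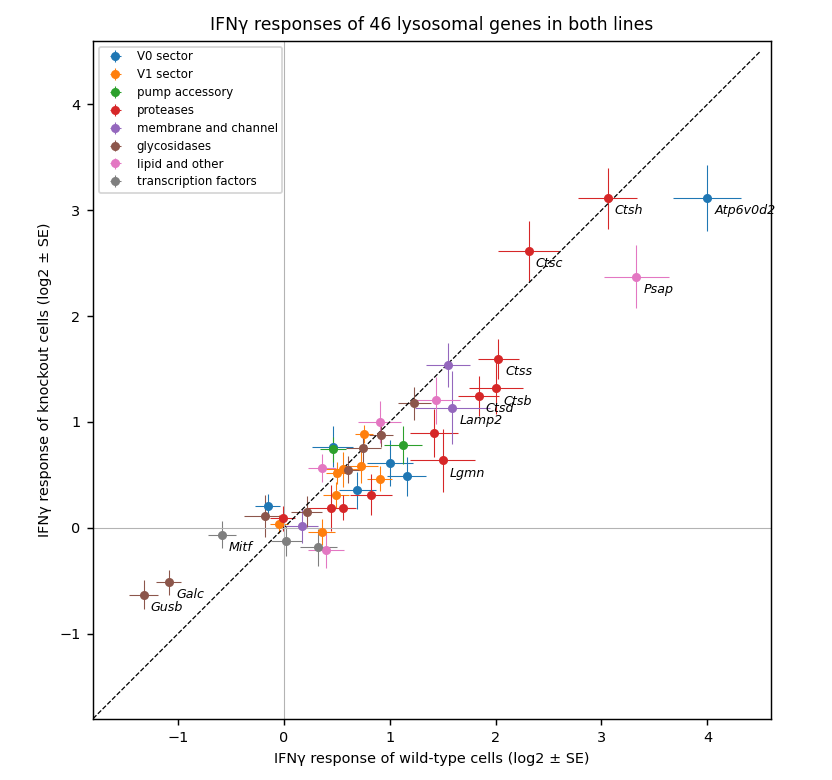
Each point is 1 of the 46 genes, coloured by role, with its fitted IFNγ response (log2 ± SE) in wild-type cells on the x axis and in knockout cells on the y axis; the dashed line marks equal responses. Psap (3.33 and 2.37) and Lgmn (1.5 and 0.64) lie below the line, Ctsh (3.06 and 3.11) close to it, and Gusb and Galc above it in the negative corner.

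Over the 46 genes the 2 responses, which share no library, had a Pearson correlation of 0.93 and a Spearman correlation of 0.90 across genes, which are not independent replicates. In the test of the difference of responses (knockout minus wild type) 2 of the 46 genes were called, both positive: Gusb (0.69 ± 0.19, adjusted p = 0.035) and Galc (0.57 ± 0.16, adjusted p = 0.040), the 2 enzymes that fell. The background was 6.5% called, 3.64% higher and 2.86% lower, so 2 of 46 is near it. Gusb reached 483, 469, 457, 312 and 366 CPM in the knockout with IFNγ from 678, 681, 667, 580 and 612 CPM, a smaller fall than in wild-type cells in batches 1 and 3 but not in batch 2, where the difference of responses was -0.22. Galc went from 27.6, 27.1, 28.0, 33.0 and 30.7 CPM to 21.7, 22.9, 21.96, 15.1 and 21.6 CPM. Both calls were fragile: without 1 library at a time Gusb was lost in 15 of 20 fits and Galc in 14, with adjusted p up to 0.075 and 0.091, and with a replicate block adjusted p was past 0.05 for both.

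No gene of the 46 was called with a negative difference by edgeR. Of the 33 risers 24 had a smaller log2 value in the knockout, and 30 of 46 differences were negative, with a median of -0.14. This lean was mostly that of batch 2: the medians within batches were -0.06, -0.69 and -0.05, with 20, 11 and 21 genes positive. Without wild-type IFNγ replicate 4 the median was 0.04, and without the 4 IFNγ libraries of batches 2 and 3 it was 0.05. With plain library totals it was -0.02. At an unadjusted p under 0.05 there were 12 genes, 8 of them negative, against 21.5% of all genes. By DESeq2 2 were called higher and none lower. The largest negative differences were those of Psap (-0.96 ± 0.40, adjusted p = 0.16), Atp6v0d2 (-0.88 ± 0.42, 0.23) and Lgmn (-0.86 ± 0.42, 0.24). For Psap the difference was negative in all batches, at -0.77, -1.30 and -0.68, and for Atp6v0d2 it was -1.88, -0.37 and 1.92. Within batch 1 alone, where replicates lay close together, 13 of the 46 were called higher and 15 lower, against 7096 of 13833 genes called in all, and these calls rest on 3 libraries a group. Outside the 46 genes, Tcirg1 was called with a smaller response in the knockout (-1.08 ± 0.23, adjusted p = 0.0090).

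**Figure D4:**
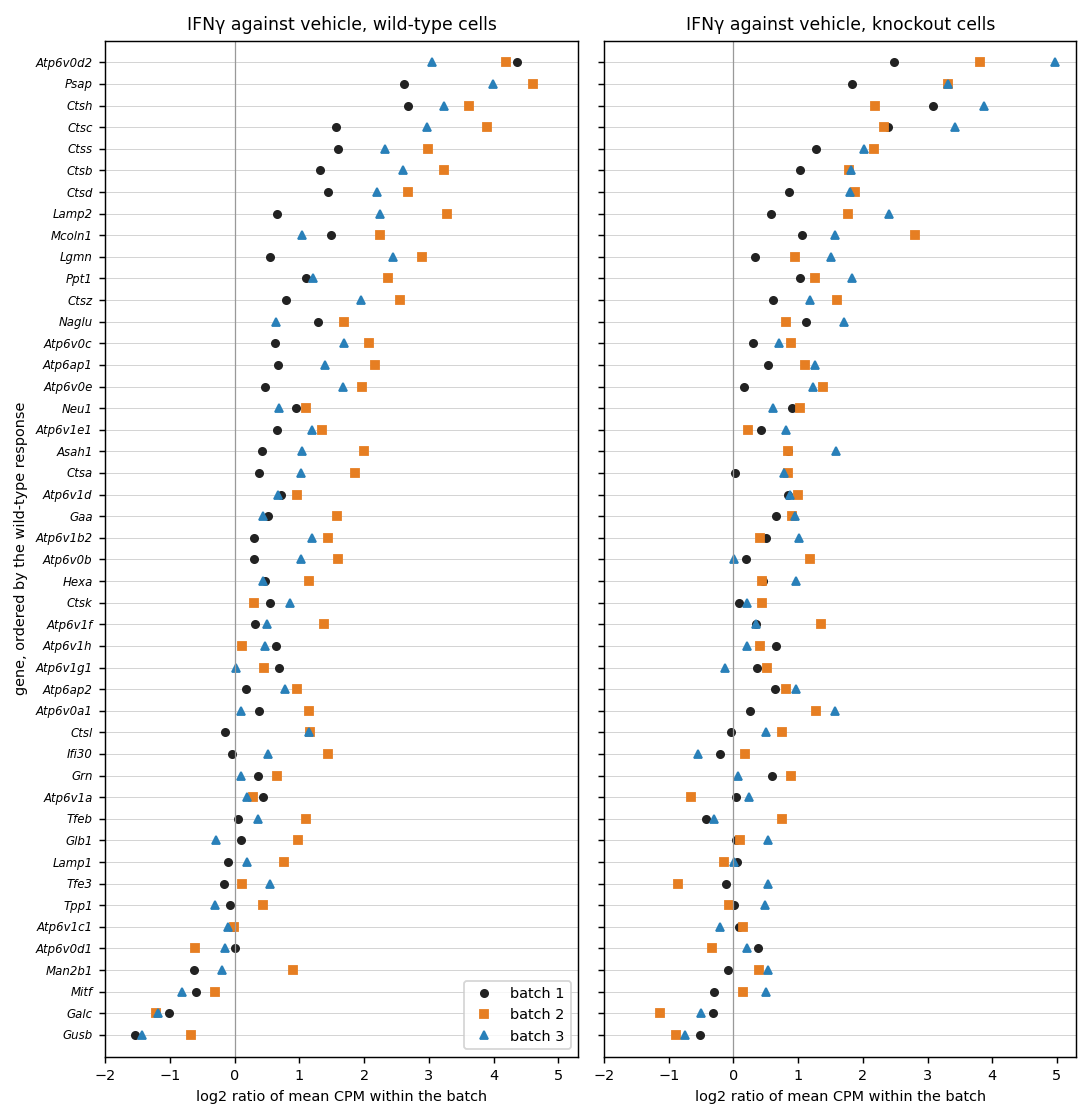
For each of the 46 genes the log2 ratio of mean CPM with IFNγ to vehicle is plotted within batch 1 (3 libraries a group), batch 2 and batch 3 (1 library a group each), on the left for wild-type and on the right for knockout cells. In wild-type cells the ratio was larger in batch 2 than in batch 1 for 39 of 46 genes and larger in batch 3 for 28, and in knockout cells for 31 and 35.

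The third question was how the lines differed without IFNγ. Under vehicle 15 of the 46 genes were lower and 3 higher in the knockout, and 28 were not called. The background was 27.3% called, 12.5% higher and 14.8% lower, and the median log2 difference was -0.14 against 0.03 over all genes. Libraries of the 2 lines did not overlap at 19 genes, 14 lower and 5 higher, against 24.9% of all genes. All 18 called genes had the same sign in all 3 batches.

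Ctsh differed most. Its vehicle libraries held 79.2, 81.1, 90.9, 134 and 127 CPM in wild-type and 6.35, 6.59, 4.78, 5.87 and 4.45 CPM in knockout cells, a level 17.5-fold lower (log2 -4.13 ± 0.30, adjusted p = 4.4e-09). It thus fell to the last place of the 46 genes per kilobase of exon, at 1.25 CPM per kb, while every knockout library still held at least 110 counts. With IFNγ the knockout reached 51.5, 49.3, 49.4, 26.8 and 65.0 CPM against 541, 528, 542, 1649 and 1194 CPM (log2 -4.07 ± 0.30, adjusted p = 4.9e-09). The fitted rise was 8.65-fold in the knockout and 8.33-fold in wild-type cells, and the difference of responses was 0.06 ± 0.37 (adjusted p = 0.96), from batch values of 0.41, -1.44 and 0.63. Without the 4 IFNγ libraries of batches 2 and 3 the response was larger in the knockout, by log2 0.76 (adjusted p = 0.0031), and in batch 1 alone by 0.43 (adjusted p = 0.00092).

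Other genes lower under vehicle spanned several roles. Mcoln1 was at 18.1, 17.3, 20.4, 24.3 and 29.03 CPM against 39.0 to 67.7 CPM in wild-type cells (log2 -1.23 ± 0.21, adjusted p = 0.00014), and Lgmn at 389, 375, 371, 484 and 361 CPM against 856 to 1076 CPM (log2 -1.23 ± 0.30, adjusted p = 0.0038). Psap was at 905, 921, 899, 985 and 910 CPM against 1608 to 2214 CPM (log2 -0.96 ± 0.28, adjusted p = 0.015), a call that failed without knockout vehicle replicate 5 (adjusted p = 0.051). Lamp1 was at 641, 612, 594, 605 and 617 CPM against 966 to 1168 CPM (log2 -0.77 ± 0.16, adjusted p = 0.0011). None of these 4 genes had overlapping groups.

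The glycosidases Glb1 (log2 -0.87 ± 0.15), Galc (-0.69 ± 0.12), Man2b1 (-0.60 ± 0.20) and Gaa (-0.59 ± 0.16) were lower, as were Ifi30 (-0.81 ± 0.17), Asah1 (-0.63 ± 0.20) and Grn (-0.48 ± 0.13). In the pump Atp6v1b2 (-0.50 ± 0.16), Atp6v1d (-0.39 ± 0.09) and Atp6v0d1 (-0.36 ± 0.12) were lower. Among these, Asah1, Man2b1, Atp6v1b2 and Atp6v0d1 lost the call in 4, 6, 5 and 6 of 20 fits without 1 library, each time a vehicle library of either line, with adjusted p up to 0.064, 0.090, 0.077 and 0.094. With no batch term 7 of the 46 genes were called lower in place of 15.

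The 3 genes that were higher were Tfeb and 2 V1 genes. Tfeb stood at 21.0, 19.95, 24.8, 24.2 and 24.7 CPM in wild-type and 47.0, 44.3, 43.9, 41.8 and 43.1 CPM in knockout cells, 1.94-fold higher (log2 0.95 ± 0.17, adjusted p = 0.00033), with no overlap. Atp6v1g1, a peripheral stalk subunit, was higher by log2 0.72 ± 0.12 at 194, 185, 185, 274 and 233 CPM against 102, 102, 115, 163 and 171 CPM. Atp6v1h, the subunit that regulates coupling of V1 and V0, was higher by 0.60 ± 0.10 at 241, 224, 214, 204 and 227 CPM against 146, 158, 159, 138 and 134 CPM. Rgs20 shares exon bases with Atp6v1h on the opposite strand, and the strand setting of the counting is not given in the sources used here.

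The last comparison set the lines side by side with IFNγ. Of the 46 genes 18 were lower and 6 higher in the knockout, with 22 not called. The background was 39% called, 20% higher and 19% lower, and the median log2 difference was -0.30 against 0.01 over all genes. Libraries did not overlap at 9 genes, 8 lower and 1 higher, against 15.1% of all genes. Of the 18 genes 11 were also among the 15 lower under vehicle, and of the 6 higher genes 3 were the 3 that were higher under vehicle. The 2 differences share no library, and over the 46 genes their Pearson correlation was 0.87 and their Spearman correlation 0.64. Ctsh, at log2 -4.13 and -4.07, lay far below the other genes in both, and a Pearson value is sensitive to such a gene. The next lowest were Mcoln1 at -1.23 under vehicle and Lgmn at -2.09 with IFNγ.

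Lgmn, Psap, Ifi30, Mcoln1, Ctsb, Glb1 and Lamp1 followed Ctsh in size. Lgmn was at 479, 474, 477, 931 and 1025 CPM in the knockout against 1307, 1308, 1242, 6845 and 5867 CPM (log2 -2.09 ± 0.31, adjusted p = 2.5e-05). Psap was at 3276, 3190, 3262, 9771 and 9032 CPM against 10500, 10320, 9867, 49390 and 35170 CPM, 3.79-fold lower (log2 -1.92 ± 0.29, adjusted p = 3.2e-05), with batch values of -1.66, -2.34 and -1.96. Every knockout library of Psap and Lgmn lay below every wild-type library, although the highest knockout Psap library (9771 CPM) came close to the lowest wild-type one (9867 CPM).

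Ifi30 was at 151, 143, 141, 165 and 96.1 CPM against 293 to 665 CPM (log2 -1.41 ± 0.17, adjusted p = 3.4e-06). Ctsb was lower by 2.14-fold (log2 -1.10 ± 0.24, adjusted p = 0.0013), and the groups overlapped across batches, the knockout being lower within each batch at -0.71, -1.76 and -1.20. Mcoln1 (-1.25 ± 0.21), Glb1 (-0.93 ± 0.15) and Lamp1 (-0.92 ± 0.16) were lower too. The pump genes Atp6v0d2 (-0.76 ± 0.28), Atp6v1b2 (-0.65 ± 0.16), Atp6v1e1 (-0.56 ± 0.12) and Atp6v1d (-0.26 ± 0.08), and further Gaa (-0.59 ± 0.17), Asah1 (-0.53 ± 0.20), Ctsd (-0.49 ± 0.19), Ctsk (-0.49 ± 0.12), Tfe3 (-0.44 ± 0.14) and Hexa (-0.33 ± 0.13) completed the 18.

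Calls with small differences in this list depended on single libraries. Of the 20 fits that left out 1 library, Ctsd lost the call in 10, Atp6v0d2 in 7, Asah1 in 6, Tfe3 in 2 and Atp6v1d in 1, with adjusted p up to 0.16, 0.099, 0.18, 0.073 and 0.060. Wild-type IFNγ replicate 4 was among the libraries left out for Ctsd, Atp6v0d2, Asah1 and Atp6v1d, and knockout IFNγ replicate 4 or wild-type IFNγ replicate 5 for Tfe3. Hexa lay at the threshold (adjusted p = 0.05) and was lost in 16 such fits. Without the 4 IFNγ libraries of batches 2 and 3, Lgmn was at log2 -1.41 and Ctsh at -3.40, both still called, while Atp6v1d (-0.15, adjusted p = 0.064) and Hexa (-0.14, adjusted p = 0.20) were not. Ctsk and Gusb were the called genes whose sign differed between batches.

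Higher in the knockout with IFNγ were Atp6v1h (0.61 ± 0.10), Gusb (0.58 ± 0.14), Atp6v1g1 (0.54 ± 0.12), Atp6ap2 (0.49 ± 0.12), Tfeb (0.45 ± 0.17) and Mitf (0.34 ± 0.13). Gusb was higher in batches 1 and 3 (0.84 and 0.71) and not in batch 2 (-0.25). Tfeb and Mitf lost the call in 11 and 9 of 20 fits without 1 library, from any of the groups but knockout vehicle for Mitf, with adjusted p up to 0.19 and 0.13. Galc, lower in the knockout under vehicle, was not called with IFNγ: both lines were then between 15.1 and 23.6 CPM.

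**Figure D5:**
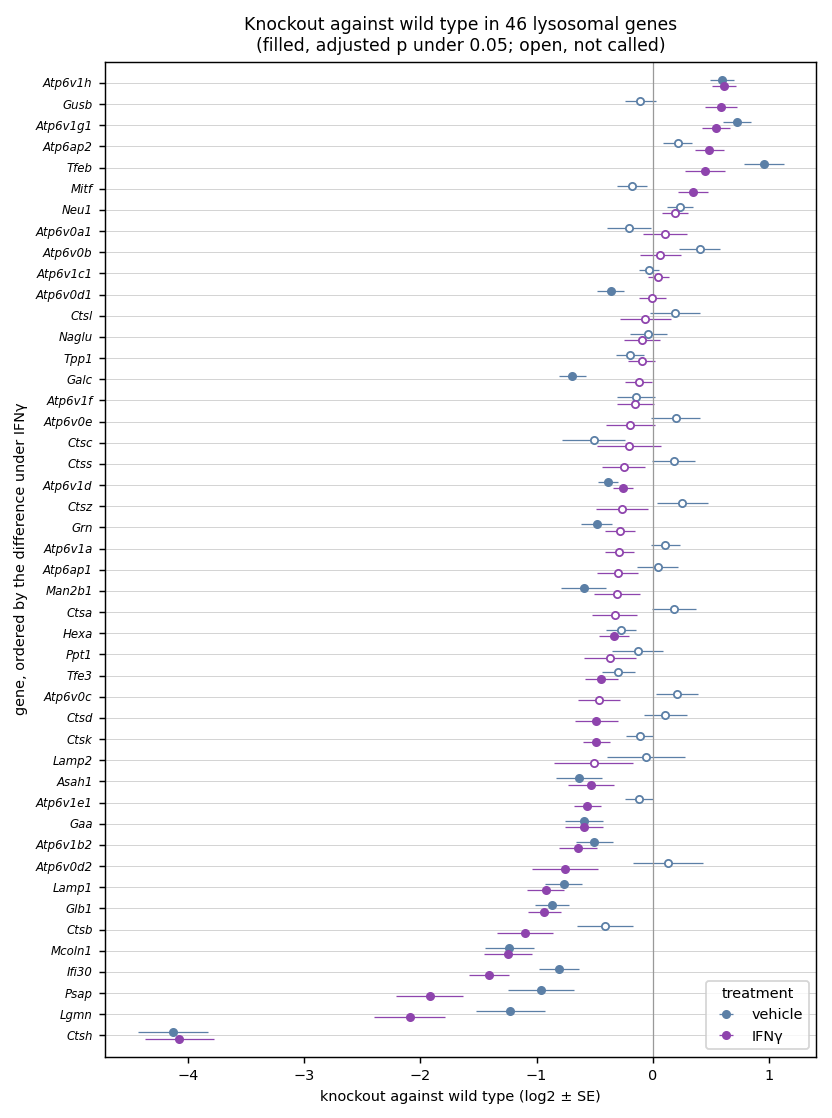
The fitted log2 difference between knockout and wild type ± SE is plotted for each of the 46 genes under vehicle and under IFNγ, in the order of the IFNγ values, with filled points for called genes. Ctsh lies near -4.1 under both treatments, 11 genes are filled on the left under both and 3 on the right under both.

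Related lists were compared between the lines with IFNγ. Of 31 other lysosomal enzymes 17 were lower and 3 higher in the knockout, and of 23 other membrane proteins and transporters 16 were lower and 1 higher, Hyal2 (log2 -1.44 ± 0.15), Slc15a3 (-1.85 ± 0.24) and Slc29a3 (-1.53 ± 0.17) among the former and Clcn7 (0.43 ± 0.11) the latter. Of 10 sorting genes 6 were lower and 2 higher. Igf2r, the large mannose-6-phosphate receptor that carries hydrolases to the lysosome, was 23.5-fold lower (log2 -4.55 ± 0.23, adjusted p = 3.4e-11). Under vehicle, where wild-type cells held 110 ± 30.0 CPM, it was 18.8-fold lower (log2 -4.24 ± 0.23). Of 23 genes of mTORC1 control 5 were lower and 2 higher, with a median log2 difference of -0.04, and of 5 cathepsin inhibitors 1 was lower. Over all tested genes 19% were lower and 20% higher, so the lower counts of both these lists lie near that share. Mtor was lower under both treatments at -0.76 ± 0.11 with vehicle and -0.74 ± 0.11 with IFNγ. Of 8 class II genes 7 were lower, Cd74, the invariant chain that Ctss cuts, by -2.30 ± 0.28.

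Per kilobase of exon the order was as follows. The length is the union of exons over all transcripts of a gene, which can exceed that of its main mRNA, so the order between genes is approximate. In wild-type vehicle cells Ctsz (796 CPM per kb), Ctsb (774) and Psap (675) were the top 3, ahead of Ctss (511), Grn (485) and Lgmn (400). With IFNγ Psap came first at 8400 CPM per kb, followed by Ctsb (3508), Ctsz (2319), Ctss (2268) and Ctsd (1562). Knockout vehicle cells were again led by Ctsz (949), with Psap sixth at 337, and with IFNγ Psap (2080), Ctss (1865), Ctsz (1847) and Ctsb (1536) were close together relative to their spread over libraries. Galc was last of the 46 in 3 of the 4 groups, at 1.39 to 3.19 CPM per kb. This place depends on its union length of 14879 bases. Its mean of 47.5 CPM in wild-type vehicle libraries was above those of Tfeb (22.96 CPM) and Atp6v0d2 (18.15 CPM). Exons of 13 of the 46 genes share bases with a gene on the opposite strand, such as Ctsb with Fdft1 and Lamp1 with Grtp1, so part of their counts may come from the neighbour. The same holds on the same strand for 3 genes, Ctsd with Gm49369, Ctsl with Gm49230 and Glb1 with Tmppe. In all 15 genes had an overlap of either kind.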

How the data were processed

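Raw read counts per gene were used as the authors deposited them, in 1 table of 20 libraries. FastQC, Trim Galore, STAR and DESeq2, and the build GRCm39, are listed in the submitters' processing notes. The sources used here do not give the counting tool, its strand setting or the annotation. Symbols came from GENCODE vM21, which matched 51948 of 56941 gene IDs. Exon lengths for levels per kilobase are unions of GENCODE vM21 exons on GRCm38, another build than that of the counts, and promoters are those of RefSeq on GRCm38.p6.

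Libraries were scaled by TMM and filtered with filterByExpr over the 4 groups. edgeR 4.0.16 (R 4.3.3, limma 3.58.1) fitted a quasi-likelihood model with group and batch as terms and 14 residual degrees of freedom to all 13755 genes, and p-values were Benjamini-Hochberg adjusted within each of 5 comparisons. SEs were derived from the F statistic. Within-batch values are log2 ratios of mean CPM. The fits were tested on simulated counts with changes planted only in the wild-type IFNγ group and with no batch differences. Only the wild-type IFNγ response was scored, so that test does not cover batch differences or the other comparisons. Alternatives were DESeq2 1.42.0, limma-voom, RLE size factors, plain library totals, no filter beyond 1 read, no batch term, a replicate block, batch 1 alone, batches 2 and 3 alone, leaving out each of 20 libraries, and, chosen after seeing the data, leaving out the 4 IFNγ libraries of batches 2 and 3.

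Whether libraries came from separate cultures is not in the labels, and p-values therefore cover only the spread among these libraries, which may be technical. Replicate numbers did not pair libraries beyond the batch: within batch 1 the deviations of same-number libraries correlated at -0.02 on average for numbers 1 and 3 and at 0 for number 2. No libraries were copies, the chi-squared of any 2 in a group being 3.54 to 356 per degree of freedom. It was 3.54 to 13.3 for 2 libraries of batch 1 and 14.1 to 356 for 2 of different batches. The 3 libraries of batch 1 in a group were thus much alike, and the fit counts each of them as a replicate. Every one of the 46 genes could be named. From each other list up to 3 called genes each way with the smallest p could be named, and Rgs10, Malat1 and Neat1. The 46 genes and all lists were chosen with earlier results of these data known.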

Additional observations from a re-analysis of the deposited data

Results flagged for a closer look

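Of 184 sets of 5 libraries (46 genes in 4 groups) 29 had a highest or lowest library whose gap to the next, divided by the range, was above Dixon's critical value of 0.71, where chance gives about 1 in 20, or 9.2. Each of the 29 was replicate 4 or replicate 5, the libraries of batches 2 and 3, so the flags are not independent of each other.

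Wild-type IFNγ replicate 4 stood high for Ctsc (2985 CPM), Tpp1 (520), Mcoln1 (301), Glb1 (221), Man2b1 (649), Asah1 (1358), Grn (2966) and Ifi30 (665 CPM), and low for Atp6v0d1 (220) and Ctsk (376 CPM). Replicate 5 of that group stood high for Tfe3 (88.6 CPM). Knockout IFNγ replicate 4 stood high for Atp6v0b (253 CPM), Atp6v1f (308), Neu1 (347) and Tfeb (70.0) and low for Lamp1 (545) and Galc (15.1 CPM). Knockout IFNγ replicate 5 stood high for Atp6v1a (938 CPM), Atp6v1b2 (896), Atp6v1e1 (211), Ctsk (464) and Asah1 (638 CPM). Knockout vehicle replicate 4 stood high for Atp6ap1 (327 CPM), Lgmn (484), Tpp1 (344), Hexa (441), Psap (984) and Grn (1277), and low for Ctsz (1209 CPM).

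The IFNγ responses of the 2 lines differed by test for Galc (log2 0.57, adjusted p = 0.040) and Gusb (log2 0.69, adjusted p = 0.035), the fitted response being less negative in the knockout for both. Neither call held in all 30 alternatives, and in batch 2 the difference for Gusb was -0.22.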

How the results depend on the processing

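Of the calls among the 46 genes, 27 of 36 (wild-type IFNγ response), 18 of 30 (knockout response), 3 of 18 (knockout against wild type, vehicle), 8 of 24 (IFNγ) and 0 of 2 (difference of responses) held in all 30 alternatives, and no call changed sign in any of them. Counts that moved by over 1.5 times follow, with the cause not tested beyond the change in the number of libraries. In batch 1 alone 7 genes were lower in the wild-type response, 5 in the knockout response, 16 higher and 23 lower in the knockout under vehicle (8072 of all genes called), 11 higher under IFNγ (9580 genes), and 13 higher and 15 lower in the difference (7096 genes). In batches 2 and 3 alone, with 2 libraries a group, 5101 genes were called in the wild-type response. There 1 of the 46 was lower in the knockout response, 0 were higher and 3 lower under vehicle (847 genes), 0 higher and 8 lower under IFNγ (1920 genes), and 0 higher in the difference (121 genes). Without the 4 IFNγ libraries of batches 2 and 3 the values were 6 lower, 4 lower, 12 higher (7605 genes), 8276 genes, and 14 higher and 11 lower (5371 genes). Without a batch term they were 3897 genes in the knockout response, 7 lower under vehicle (2318 genes), 11 lower under IFNγ and 0 higher in the difference (138 genes). Plain library totals moved the median of all genes to -0.21 and -0.16 in the 2 responses and called 27 of the 46 higher and 4 lower in wild-type cells (36.7% of all calls higher against 49.2% with TMM), and 26 and 3 in the knockout (38.5% against 49.5%). They gave 5 higher under vehicle, a share of higher calls under IFNγ of 62.3% against 51.4%, and 1 higher and 1 lower in the difference (537 genes). No filter gave 1 higher and 3 lower in the difference, and DESeq2 1480 genes.

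With a replicate block in place of batch the difference of responses had 530 genes, 0 of the 46 higher, and no count of the other comparisons moved by over 1.5 times. Leaving out 1 library gave 542 (without knockout vehicle replicate 1) to 1448 genes (without knockout IFNγ replicate 4), with 0 to 4 of the 46 higher and 0 to 2 lower, against 894, 2 and 0 with all libraries. Without wild-type IFNγ replicate 4 there were 4 higher and 1 lower. Depth was not limiting for these genes, whose lowest count in a library was 110.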
